A study of Mus musculus with 9 samples.

Results

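The genes described here lie beside Eif2ak4 on mouse chromosome 2. Eif2ak4 encodes general control nonderepressible 2 (GCN2), the kinase that is deleted in the knockout mice of the study. The 36 members were chosen by name for their position around Eif2ak4, and 32 of them were listed in at least 1 of the 3 deposited tables, which list 16937 genes in all. In the GENCODE annotation of GRCm38 they span 1.916 Mb, from 118111876 (Thbs1) to 120027408 (Mapkbp1). Of the 36 members, 30 were listed for GCN2 KO Cold against WT Cold, 32 for WT Cold against WT RT and 31 for GCN2 KO Cold against WT RT. Fsip1, Gpr176, Pak6 and Rhov were in no table. Ltk was listed only for WT Cold against WT RT, and Oip5 was not listed for GCN2 KO Cold against WT Cold.

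RNA was measured in brown adipose tissue (BAT), the fat depot that burns fuel to produce heat, by sequencing of poly(A)-selected RNA in 9 libraries. WT RT mice were wild type and stayed at 23 °C, WT Cold mice were wild type and spent 8 h at 4 °C, and GCN2 KO Cold mice lacked GCN2 in the whole body and spent 8 h at 4 °C, with 3 libraries in each group. The mice were adults on the C57Bl/6J background and were housed singly before the exposure. Per the paper, the sequenced groups mixed males and females, and no fit took sex into account. The columns of the tables carry library codes that name neither group nor mouse. Each code occurs in 2 of the 3 tables, each table compares 2 groups, and the group that both tables share was taken as that of the library. Libraries are numbered within a group, and p-values measure the spread between these libraries. The title of 1 GCN2 KO Cold sample names both genotypes, and its genotype field gives GCN2 KO. No GCN2 KO mice at room temperature were sequenced here, so an effect of genotype at 23 °C cannot be told apart from one that needs cold. WT RT libraries carry codes of another series than the cold libraries carry, and how that bears on preparation cannot be told apart from temperature.

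GCN2 is switched on by uncharged tRNA when amino acids run short. It phosphorylates the translation factor eIF2, which slows general protein synthesis and raises the translation of ATF4, a transcription factor for amino acid transport and synthesis genes. The neighbours of Eif2ak4 belong to unrelated pathways: they include a regulator of tetrahydrobiopterin synthesis, an enzyme of leucine breakdown, parts of the mitotic spindle, chromatin proteins and the Notch ligand Dll4. In a knockout line, genes close to the targeted locus are inherited together with it, which is why their levels are given one by one. The question put to these genes was whether they differ in GCN2 KO Cold libraries, and whether any such difference is seen against both wild type groups.

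Levels are in CPM, the reads of a gene scaled to a common total over the genes present in all 9 libraries. Between 27058799 and 30768064 reads fell on listed genes in each library. Log2 fold changes and their standard errors (SE) come from limma on log2(normalized count + 1), fitted over all genes of a table, with Benjamini-Hochberg adjusted p, and this scale understates the change of low genes. A gene was called when its adjusted p was under 0.05 and its absolute log2 fold change was over 1. CPM scaling placed the median of all genes 0.12 (log2) lower in GCN2 KO Cold than in WT Cold and 0.19 lower than in WT RT, whereas the tables' own scaling placed it at -0.0031 and 0.0091. The brown adipocyte markers Ucp1, Cidea, Adipoq, Plin1, Fabp4 and Pparg were present in every library. Their summed level was 17900 to 19630 CPM in WT RT, 22800 to 24490 in WT Cold and 26600 to 27140 in GCN2 KO Cold. Fabp4 and Ucp1 held most of that sum. Against WT RT, log2 fold changes were above 0 for 4 of the 6 and below 0 for 2 in each cold group. The 2 were Plin1 (-0.34 in WT Cold, limma adjusted p = 0.0256, and -0.23 in GCN2 KO Cold, 0.125) and Adipoq (-0.17, 0.395, and -0.13, 0.386). All 7 skeletal muscle markers had a log2 fold change below 0 in GCN2 KO Cold against WT Cold (median -2.02, 0 called by limma), with a summed level of 2136 to 2570 CPM in WT RT, 2038 to 3390 in WT Cold and 288.8 to 1150 in GCN2 KO Cold. DESeq2 on the recovered reads passed Mb (DESeq2 adjusted p = 3.36e-08) and Myh1 (0.00792) there, where 3.22% of all genes passed. Against WT RT, limma had 6 of the 7 lower in GCN2 KO Cold (17.8% of all genes were) and called 5 as lower (7.58% of all genes). The 7 macrophage and leukocyte markers summed to 268.3 to 443.2 CPM in WT RT, 124.3 to 165.3 in WT Cold and 92.69 to 146.6 in GCN2 KO Cold. No marker was at 0 in all libraries. The part of these cell types in the values below was not tested, and fewer cells of a type cannot be told apart from less RNA per cell in whole tissue.

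Eif2ak4 itself, at chr2:118388618-118475234 on the plus strand of GRCm38, was no lower in the knockout as labelled: its GCN2 KO Cold libraries lay above WT Cold and overlapped WT RT. It had 11.07, 12.64 and 13.03 CPM in WT RT, 6.461, 8.306 and 8.337 in WT Cold, and 11.9, 12.65 and 11.83 in GCN2 KO Cold. The WT Cold libraries were below all the others, while the WT RT and GCN2 KO Cold libraries overlapped. The log2 fold change was 0.78 ± 0.15 (SE) for GCN2 KO Cold against WT Cold, which did not pass in limma (adjusted p = 0.0932) and passed in DESeq2 on the recovered reads (adjusted p = 0.0028). For WT Cold against WT RT it was -0.59 ± 0.16 (limma adjusted p = 0.0294, and 0.0816, 0.059, 0.0806 and 0.0972 without WT Cold library 1, WT Cold library 2, WT RT library 2 and WT RT library 3). For GCN2 KO Cold against WT RT it was 0.19 ± 0.12 (limma adjusted p = 0.26), turning to -0.011 when all 3 groups were fitted on CPM. These values sum reads over the whole gene, whichever exons they cover, so they do not check the deletion, and every direction given for GCN2 KO Cold rests on the label. Among the other kinases of eIF2, Eif2ak1 and Eif2ak3 did not pass in any comparison, and Eif2ak2, the kinase activated by double-stranded RNA, was lower in both cold groups than in WT RT (limma log2 fold change -1.60 in WT Cold, adjusted p = 0.000491).

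In GCN2 KO Cold against WT Cold, 1 of the 30 members tested was called by limma, Gchfr, which was higher (3.33% of the members, against 0.257% of all 16312 genes called and 0.0613% called higher). The unadjusted limma p was under 0.05 for 8 members (26.7%, against 15.3% of all genes). The log2 fold change was above 0 for 8 members and below 0 for 22, with a median of -0.14 beside -0.0031 for all genes. The 3 libraries of a group lay entirely above those of the other for 6 members and entirely below for 7, where 11.3% of all genes were higher and 10.7% lower in this way. DESeq2 gave an adjusted p under 0.05 to 5 members, Gchfr, Srp14, Rmdn3, Exd1 and Thbs1 (16.7%, against 3.22% of all genes), and Gchfr and Thbs1 passed both thresholds (6.67%, against 1.28%). Outside the members, the 11 other listed genes of the stretch held none with a limma adjusted p under 0.05 here, and 1 with an unadjusted p under 0.05. DESeq2 also gave none of the 11 an adjusted p under 0.05.

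**Figure D1:**
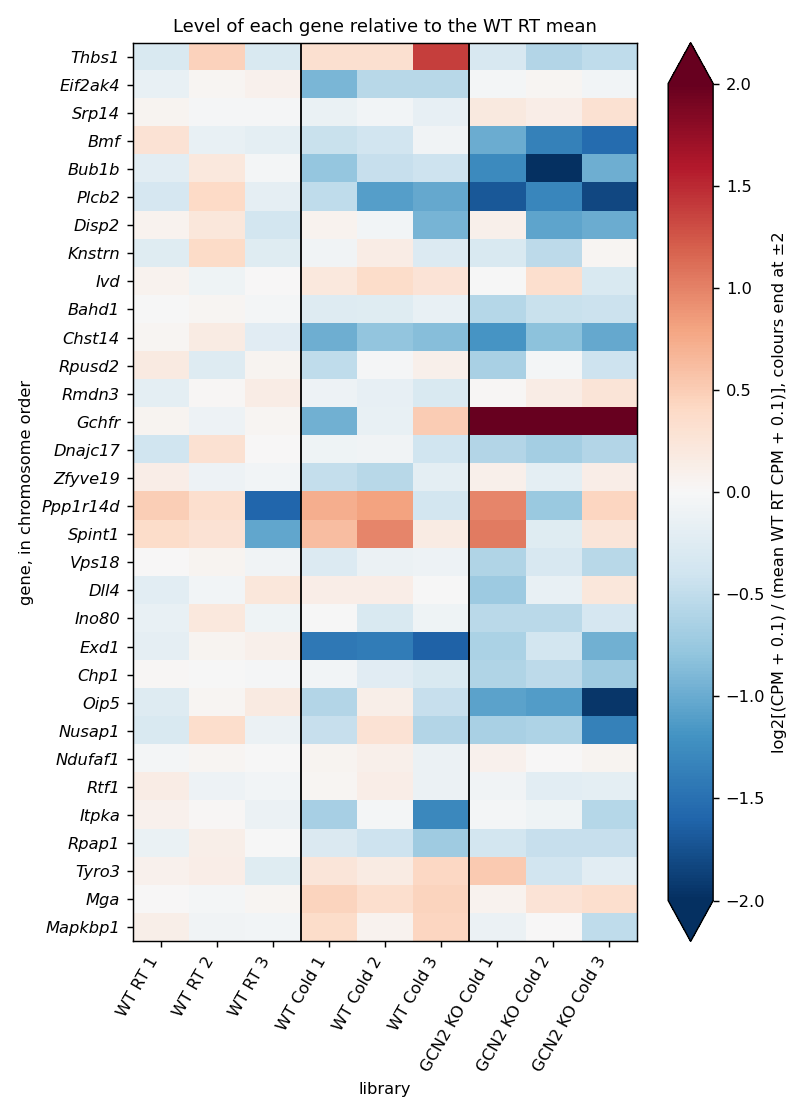
Heat map of the members with reads in all 9 libraries, and of Eif2ak4, in chromosome order (rows) by library (columns). Colour gives the log2 ratio of CPM to the WT RT mean after adding 0.1 CPM to both, with colours ending at ±2. Gchfr is dark red in all 3 GCN2 KO Cold libraries, Exd1 is blue in all 3 WT Cold libraries, and Spint1 and Ppp1r14d vary between libraries within each group.

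Among the 4 members with roles in metabolism and mitochondria, Gchfr differed most between groups. Gchfr encodes the feedback regulator of GTP cyclohydrolase 1, the first enzyme of tetrahydrobiopterin synthesis, and the regulator passes inhibition by tetrahydrobiopterin on to that enzyme. It lies at chr2:119167773-119172390 on the plus strand of GRCm38, 0.6925 Mb from Eif2ak4. It had 7.421, 6.598 and 7.32 CPM in WT RT, 3.593, 6.43 and 10.18 in WT Cold, and 115.4, 120.7 and 142.8 in GCN2 KO Cold. The lowest GCN2 KO Cold library was far above the highest of the 6 wild type libraries, and both wild type groups overlapped. The mean was 126.3 ± 14.49 CPM (SD, n = 3) in GCN2 KO Cold, 18.8 times the mean of WT Cold (6.733 ± 3.303) and 17.8 times that of WT RT (7.113 ± 0.4486). The log2 fold change was 4.46 ± 0.35 (SE) against WT Cold (limma adjusted p = 0.00842) and 4.34 ± 0.11 against WT RT (limma adjusted p = 2.16e-06). Against WT Cold, the limma adjusted p rose to 0.0816 without WT Cold library 2, to 0.0508 without GCN2 KO Cold library 2 and to 0.0578 without the mean-variance trend, with log2 fold changes of 4.49, 4.49 and 4.46, and DESeq2 gave 1.55e-47. For WT Cold against WT RT the log2 fold change was -0.12 ± 0.35 (limma adjusted p = 0.828), and it was 0.014 in DESeq2 and 0.011 in edgeR.

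The stretch before the annotated start of Gchfr is shown because this member had the largest difference of the 30 in GCN2 KO Cold against WT Cold. It is RefSeq sequence of GRCm38.p6, chr2:119167538-119167772 on the plus strand, printed 5′ to 3′, and it holds 64.7% G and C. Capitals mark a GC box and, closer to the start, a CCAAT box that reads on the other strand.
Gchfr: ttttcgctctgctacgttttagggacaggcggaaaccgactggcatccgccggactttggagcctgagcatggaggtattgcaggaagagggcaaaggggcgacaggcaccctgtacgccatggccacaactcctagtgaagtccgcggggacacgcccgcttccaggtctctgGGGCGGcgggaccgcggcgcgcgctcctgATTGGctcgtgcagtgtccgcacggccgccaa
The motifs searched for on both strands, with none of the matches overlapping, were the following. A CCAAT box, spelled as in its name, is held by 33.2% of 27025 RefSeq promoters in the 235 bases before the start. A GC box, spelled GGGCGG, is held by 32.51% of them. A half-site of the cAMP response element, spelled TGACG, is held by 17.24%, and its letters are not in this window. Nor are the letters TATAAA of a TATA box, held by 12.26%. The C/EBP-ATF response element, spelled TGATGCAA, is held by 0.77% and has no match here either. These are the C57BL/6J reference letters and not a sequence read from the mice.

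Rmdn3, which tethers the endoplasmic reticulum to mitochondria, was the next of this role. It had 172.2, 199.9 and 219.5 CPM in WT RT, 182.9, 175.2 and 159.1 in WT Cold, and 199.7, 219.6 and 235.2 in GCN2 KO Cold. The GCN2 KO Cold libraries were all above the WT Cold libraries and overlapped those of WT RT. The log2 fold change against WT Cold was 0.46 ± 0.09 (limma adjusted p = 0.0931, DESeq2 adjusted p = 0.00472), and against WT RT it was 0.35 ± 0.12 (limma adjusted p = 0.0511, DESeq2 adjusted p = 0.0382).

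Ivd, the isovaleryl-CoA dehydrogenase of leucine breakdown, rose with cold in wild type mice. It had 205.3, 183.8 and 197.4 CPM in WT RT, 226.0, 253.3 and 236.6 in WT Cold, and 194.5, 246.7 and 158.0 in GCN2 KO Cold. All WT Cold libraries were above WT RT, while the GCN2 KO Cold libraries spread from below WT RT to within WT Cold. It was higher by 0.37 ± 0.09 (log2) for WT Cold against WT RT (limma adjusted p = 0.0163), and it was lost without WT Cold library 2 (adjusted p = 0.065), without WT RT library 2 (0.0535), without the trend (0.058) and with all 3 groups in 1 limma fit (0.146). It was -0.16 ± 0.15 for GCN2 KO Cold against WT Cold (limma adjusted p = 0.67), and -0.33 to -0.011 with 1 library left out.

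Ndufaf1, an assembly factor of respiratory complex I, differed little. Its range was 48.17 to 50.8 CPM in WT RT, 45.33 to 52.93 in WT Cold and 49.78 to 52.33 in GCN2 KO Cold, so the groups overlapped in CPM. On the tables' own scaling it was 0.26 ± 0.07 (log2) higher in GCN2 KO Cold than in WT RT (limma adjusted p = 0.0277), and 0.05 with an adjusted p of 0.638 when all 3 groups were fitted by limma on CPM. Leaving out any 1 library other than WT RT library 3 also took the limma adjusted p past 0.05, to at most 0.0902.

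Genes of the pathways that Gchfr and Ivd belong to were set beside them. Of 6 tetrahydrobiopterin genes (Gch1, Pts, Spr, Qdpr, Pcbd1 and Pcbd2), none passed limma in GCN2 KO Cold against WT Cold, with 5 log2 fold changes above 0 and a median of 0.36 beside -0.0031 for all genes. DESeq2 passed 2 of them there (3.22% of all genes passed), Pts (limma log2 fold change 0.49, DESeq2 adjusted p = 0.00645) and Pcbd2 (0.56, DESeq2 adjusted p = 0.0049). Gch1, whose product Gchfr regulates, had a log2 fold change of -0.14 (limma adjusted p = 0.821). In WT Cold against WT RT, Pts (-0.33) and Spr (-0.34) fell in limma, where 14.1% of all genes fell, and in GCN2 KO Cold against WT RT, Pcbd2 (0.33, adjusted p = 0.0274) and Qdpr (0.26, adjusted p = 0.0454) rose in limma, where 16.4% of all genes rose. Of 9 genes of leucine breakdown, none passed in GCN2 KO Cold against WT Cold, and Bcat2 (1.09, adjusted p = 0.000735) and Dbt (0.69, adjusted p = 0.00188) rose in WT Cold against WT RT in limma, where 13.6% of all genes rose. In GCN2 KO Cold against WT RT, where the share over all genes was 16.4%, 4 of the 9 rose in limma: Bcat2 (1.04, adjusted p = 0.00084), Dbt (0.87, 0.000967), Bckdhb (0.40, 0.0107) and Dld (0.29, 0.0251). Bcat2 starts the breakdown of branched-chain amino acids and Dbt is a subunit of the dehydrogenase complex that follows it.

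**Figure D2:**
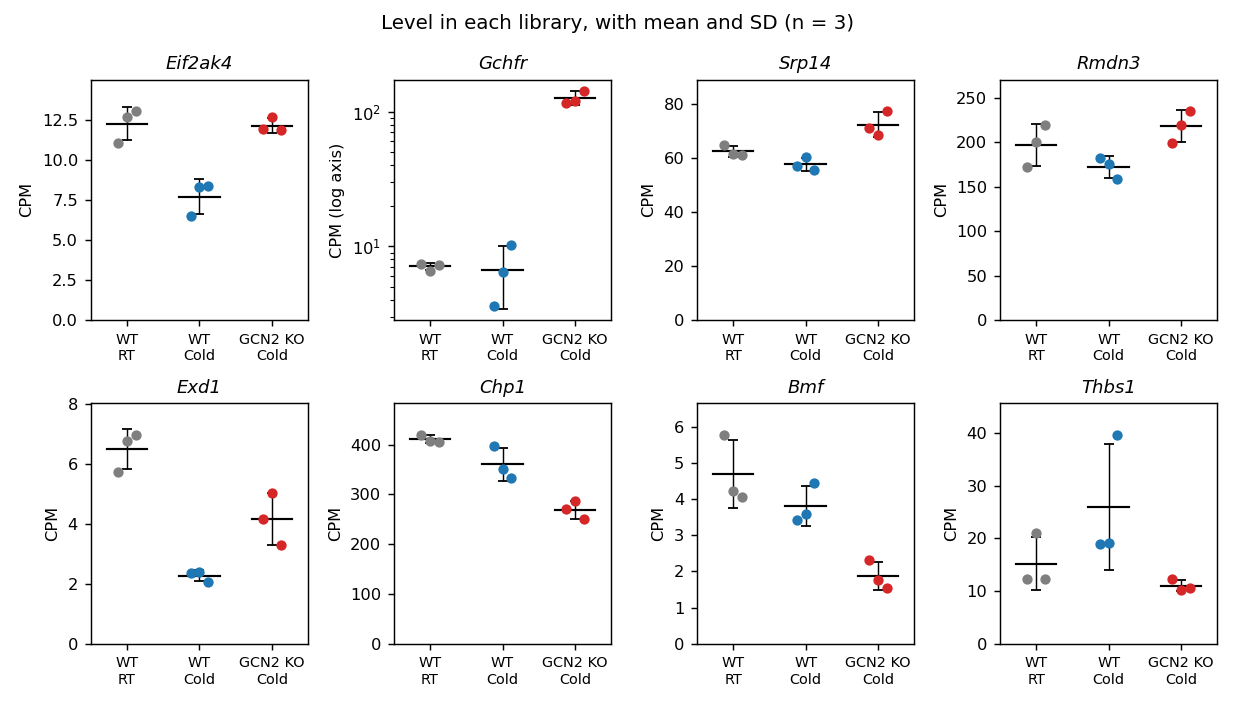
Level in CPM of Eif2ak4 and 7 members in each library (points), with the mean (line) and SD (bar) of 3 libraries per group; the axis is logarithmic for Gchfr only. Gchfr in GCN2 KO Cold sits between 115.4 and 142.8 CPM and at most at 10.18 CPM in the other groups, and Exd1 in WT Cold sits between 2.049 and 2.398 CPM.

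Of the 4 members in protein targeting, trafficking and cell death, Srp14 is the nearest listed neighbour of Eif2ak4. It encodes a subunit of the signal recognition particle, which brings ribosomes to the endoplasmic reticulum, and its annotated end lies 615 bases beyond that of Eif2ak4, on the opposite strand. It had 64.62, 61.34 and 61.19 CPM in WT RT, 57.14, 60.3 and 55.51 in WT Cold, and 71.1, 68.49 and 77.32 in GCN2 KO Cold. The GCN2 KO Cold libraries were above all 6 wild type libraries. Its log2 fold change was 0.44 ± 0.08 against WT Cold (limma adjusted p = 0.0828, DESeq2 adjusted p = 0.00621) and 0.41 ± 0.08 against WT RT (limma adjusted p = 0.00492). It was -0.03 ± 0.07 for WT Cold against WT RT (limma adjusted p = 0.789).

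Bmf, a BH3-only protein that promotes apoptosis, was lower in GCN2 KO Cold than in WT RT. It had 5.779, 4.226 and 4.07 CPM in WT RT, 3.42, 3.58 and 4.446 in WT Cold, and 2.315, 1.773 and 1.552 in GCN2 KO Cold. The GCN2 KO Cold libraries were below all 6 wild type libraries. The fall was called against WT RT (log2 fold change -1.10 ± 0.23, limma adjusted p = 0.00741), and against WT Cold the value was -0.90 ± 0.23 (limma adjusted p = 0.151, and 0.0452 with all 3 groups in 1 fit). The fall of Bmf against WT RT was under the fold limit of the call without GCN2 KO Cold library 3 (log2 fold change -0.98, limma adjusted p = 0.0226) or WT RT library 1 (-0.96, limma adjusted p = 0.0344).

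Vps18, a core subunit of complexes that tether vesicles to endosomes and lysosomes, had 15.92 to 17.42 CPM in WT RT, 13.79 to 15.67 in WT Cold and 10.96 to 13.35 in GCN2 KO Cold. Its log2 fold changes of -0.22 and -0.30 against WT Cold and WT RT did not pass in limma (adjusted p = 0.478 and 0.0808). The fall of Vps18 against WT RT passed with all 3 groups in 1 fit on CPM (-0.50, limma adjusted p = 0.00619) and without GCN2 KO Cold library 2 (-0.39, limma adjusted p = 0.042). Its GCN2 KO Cold libraries were below all wild type libraries in CPM but not after TMM scaling. Zfyve19, a regulator of the last step of cell division, had 8.411 to 10.91 CPM in WT Cold and 10.92 to 13.71 in GCN2 KO Cold, apart by a narrow margin, with a log2 fold change of 0.54 ± 0.16 (limma adjusted p = 0.185).

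Of the 8 members in transcription, chromatin and RNA, none passed limma in GCN2 KO Cold against WT Cold. Exd1, a partner of the piRNA pathway known from the germ line, had the largest fall with cold of the members. It had 5.713, 6.761 and 6.959 CPM in WT RT, 2.349, 2.398 and 2.049 in WT Cold, and 4.159, 5.006 and 3.289 in GCN2 KO Cold. The 3 groups did not overlap in CPM: WT Cold was lowest, GCN2 KO Cold intermediate and WT RT highest. For Exd1, the log2 fold change of WT Cold against WT RT was -1.42 ± 0.17 (limma adjusted p = 0.0014), and Exd1 was the only 1 of 32 members called there (3.13%, against 8.14% of all 16679 genes, 5.15% being lower). For GCN2 KO Cold against WT Cold it was 0.96 ± 0.21 (limma adjusted p = 0.113, DESeq2 adjusted p = 0.0177), and against WT RT it was -0.45 ± 0.20 (limma adjusted p = 0.116). With all 3 groups in 1 limma fit on CPM both passed (0.85, adjusted p = 0.0499, and -0.65, adjusted p = 0.0217). On the tables' own scaling the GCN2 KO Cold and WT RT libraries overlapped.

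Exd1 and Chp1 stand head to head, with 69 bases between their annotated starts, so both are read away from 1 short stretch. It is shown because Exd1 fell with cold while Chp1 did not pass in that comparison. The stretch is RefSeq sequence of GRCm38.p6, chr2:119547628-119547696, on the plus strand and 5′ to 3′, with 69.6% G and C. Capitals mark a half-site of the cAMP response element and, nearer to Chp1, a CCAAT box that reads on the other strand.
Exd1 to Chp1: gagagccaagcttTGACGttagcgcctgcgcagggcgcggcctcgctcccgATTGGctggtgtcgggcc
Of the RefSeq promoters, 8.24% hold that half-site and 13.47% hold a CCAAT box in the 69 bases before the start, and the other motifs searched have no match here.

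Mga, a MAX-binding repressor of transcription, was higher in both cold groups than in WT RT. It had 36.42, 35.17 and 37.06 CPM in WT RT, 49.54, 45.56 and 49.15 in WT Cold, and 37.9, 43.7 and 45.79 in GCN2 KO Cold. All cold libraries were above all WT RT libraries. Its log2 fold change was 0.49 ± 0.09 for WT Cold (limma adjusted p = 0.00534) and 0.43 ± 0.10 for GCN2 KO Cold against WT RT (limma adjusted p = 0.0124, and 0.0668 with all 3 groups fitted on CPM). It was -0.07 ± 0.10 between the cold groups (limma adjusted p = 0.803).

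The other members of this role passed in no comparison in the limma fits of 2 groups. With all 3 groups in 1 limma fit on CPM, where the median of all genes is lower by 0.19 (log2), 4 of them passed as lower in GCN2 KO Cold against WT RT: Bahd1 (-0.49, adjusted p = 0.00439), Ino80 (-0.46, 0.0173), Dnajc17 (-0.60, 0.0355) and Rpap1 (-0.43, 0.0322). In that fit Rpap1 was also lower in WT Cold than in WT RT (-0.47, limma adjusted p = 0.0285). The share of all genes that passed as lower in GCN2 KO Cold against WT RT was not counted for that fit. It was 17.8% at an adjusted p under 0.05 in the limma fit of 2 groups. Bahd1, a heterochromatin protein, had 12.44 to 13.16 CPM in WT RT, 10.68 to 11.5 in WT Cold and 8.608 to 9.425 in GCN2 KO Cold, 3 ranges that did not overlap in CPM. On the tables' own scaling its WT Cold and WT RT libraries overlapped. Its log2 fold change in GCN2 KO Cold was -0.15 ± 0.12 against WT Cold and -0.28 ± 0.11 against WT RT (limma adjusted p = 0.597 and 0.0816). Ino80, the ATPase of a nucleosome remodeller, had 16.16 to 23.14 CPM over the wild type libraries and 13.74 to 15.74 in GCN2 KO Cold. Dnajc17, a spliceosome-associated chaperone, had 4.269 to 6.988 CPM over the wild type libraries and 3.477 to 3.733 in GCN2 KO Cold. It ends 109 bases from Gchfr, tail to tail, and overlaps Zfyve19 by 179 bases and the gene Gm14137 by 3067 bases. The library kit is not stated to keep strand, so reads of genes that overlap on opposite strands cannot be told apart. The log2 fold change of Dnajc17 in GCN2 KO Cold against WT Cold was -0.33 ± 0.16 (limma adjusted p = 0.389), while Rmdn3, the member on the other side of Gchfr at 10738 bases, had 0.46. Rtf1, a factor of transcription elongation, had 26.28 to 33.39 CPM over all 9 libraries, Rpap1, an RNA polymerase II-associated protein, 6.947 to 12.51, and Rpusd2, a pseudouridine synthase, 1.736 to 3.152. For Rtf1 the log2 fold change of GCN2 KO Cold against WT RT was 0.052, and -0.15 when fitted on CPM with all 3 groups.

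Of the 12 members in receptors, ligands and signalling, 9 were listed, and none passed limma in GCN2 KO Cold against WT Cold. Chp1, a calcium-binding partner of sodium-proton exchangers, had 419.7, 407.1 and 405.7 CPM in WT RT, 397.6, 351.6 and 333.2 in WT Cold, and 270.7, 286.3 and 250.5 in GCN2 KO Cold. The 3 groups did not overlap in CPM, and GCN2 KO Cold was lowest. On the tables' own scaling the WT Cold and WT RT libraries overlapped. For Chp1 in GCN2 KO Cold, the log2 fold change was -0.30 ± 0.08 against WT Cold (limma adjusted p = 0.168, and 0.0319 with all 3 groups in 1 fit) and -0.41 ± 0.08 against WT RT (limma adjusted p = 0.00485). It was -0.11 ± 0.08 for WT Cold against WT RT (limma adjusted p = 0.331).

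Plcb2, a phospholipase C that acts downstream of G protein-coupled receptors and is abundant in leukocytes, had 1.74, 2.958 and 1.937 CPM in WT RT, 1.52, 0.9731 and 1.042 in WT Cold, and 0.6148, 0.8344 and 0.5544 in GCN2 KO Cold. Each group lay below the one before. The fall in GCN2 KO Cold against WT RT was called (log2 fold change -1.46 ± 0.31, limma adjusted p = 0.00754), and the other comparisons did not pass (-0.67 ± 0.31 against WT Cold, limma adjusted p = 0.357; -0.80 ± 0.29 for WT Cold against WT RT, 0.0772). Of the 7 macrophage and leukocyte markers, 5 were also lower in limma in each cold group than in WT RT. The share of all genes that were lower was 14.1% for WT Cold and 17.8% for GCN2 KO Cold. The part of these markers in the Plcb2 values was not tested.

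The remaining signalling members passed limma in no comparison, except Itpka in WT Cold against WT RT when WT Cold library 2 was left out (-0.91, limma adjusted p = 0.041). Dll4, the Notch ligand of sprouting endothelium, had 13.07 to 17.76 CPM in WT RT, 14.97 to 16.68 in WT Cold and 9.15 to 17.74 in GCN2 KO Cold. Its groups overlapped, and its log2 fold change in GCN2 KO Cold against WT RT was 0.0020, turning to -0.022 with TMM scaling and -0.20 on CPM with all 3 groups. Of 6 other Notch pathway genes, Notch4 (0.77, adjusted p = 0.00252) and Heyl (0.74, adjusted p = 0.0141) rose in WT Cold against WT RT in limma (13.6% of all genes rose), and none passed in GCN2 KO Cold against WT Cold, where DESeq2 passed Notch4 (limma log2 fold change -0.57, DESeq2 adjusted p = 0.00128). The 5 endothelial markers summed to 498.7 to 550.9 CPM in WT RT, 583.8 to 719.8 in WT Cold and 471.5 to 574.5 in GCN2 KO Cold, and their part in the Notch values was not tested. Tyro3, a receptor of the TAM family that recognises dying cells through bridging ligands, had 1.043 to 2.025 CPM over all 9 libraries. Of its relatives and their ligands, Mertk rose against WT RT both in WT Cold (0.61, limma adjusted p = 0.00561) and GCN2 KO Cold (0.38, limma adjusted p = 0.0282). Axl was lower in GCN2 KO Cold than in WT RT (-0.79, limma adjusted p = 0.00283) and had -0.34 in WT Cold against WT RT (limma adjusted p = 0.0962), and Gas6 and Pros1 passed in no comparison. Itpka, a kinase of inositol trisphosphate, had 2.119 to 5.648 CPM, Mapkbp1, a scaffold of JNK signalling, 5.84 to 11.25, and Disp2, a homologue of the Hedgehog release protein, 0.591 to 1.593. Ltk, a receptor tyrosine kinase, was low in its only table, with normalized counts of 5.416 to 15.41 in WT Cold and 4.92 to 13.9 in WT RT.

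Of the 3 members that act at the cell surface or in the matrix, Thbs1, a matrix glycoprotein that activates TGF-beta, had 12.21, 21.03 and 12.31 CPM in WT RT, 19.0, 19.05 and 39.63 in WT Cold, and 12.19, 10.12 and 10.64 in GCN2 KO Cold. The GCN2 KO Cold libraries were below all 6 wild type libraries, the nearest being a WT RT library at 12.21 CPM, and WT Cold library 3 stood above the rest. The log2 fold change against WT Cold was -1.03 ± 0.29 (limma adjusted p = 0.177, DESeq2 adjusted p = 0.00565), and -0.66 in limma when WT Cold library 3 was left out. Against WT RT it was -0.22 ± 0.20 (limma adjusted p = 0.432), and 0.020 without WT RT library 2. For WT Cold against WT RT it was 0.81 ± 0.33 (limma adjusted p = 0.103, DESeq2 adjusted p = 0.0215), and 0.44 to 1.05 in limma with 1 library left out.

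Chst14, a sulfotransferase of dermatan sulfate synthesis, was lower in both cold groups than in WT RT. It had 6.534, 7.086 and 5.416 CPM in WT RT, 3.179, 3.649 and 3.474 in WT Cold, and 2.749, 3.546 and 3.068 in GCN2 KO Cold. The WT RT libraries were above all 6 cold libraries, and both cold groups overlapped. Against WT RT the log2 fold change was -0.79 ± 0.16 for WT Cold and -0.81 ± 0.18 for GCN2 KO Cold (limma adjusted p = 0.00979 and 0.00875), and -0.03 ± 0.18 between the cold groups (limma adjusted p = 0.965).

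Spint1, a membrane inhibitor of serine proteases that is typical of epithelium, varied within each group. It had 14.97, 14.17 and 5.548 CPM in WT RT, 17.72, 22.87 and 12.99 in WT Cold, and 23.91, 9.734 and 13.75 in GCN2 KO Cold. The groups overlapped, and no comparison passed in limma. Its neighbour Ppp1r14d, an inhibitor of protein phosphatase 1 counted here with signalling, had 4.072, 3.64 and 0.8863 CPM in WT RT, 4.802, 5.109 and 2.188 in WT Cold, and 5.75, 1.669 and 3.881 in GCN2 KO Cold. The lowest library of each group was the same for both genes: library 3 in WT RT and WT Cold, and library 2 in GCN2 KO Cold. The same 3 libraries were lowest in their groups for 2 of the 4 smooth muscle and pericyte markers, Acta2 and Myh11. In WT RT, WT Cold and GCN2 KO Cold respectively, that library had 91.32, 171.4 and 158.7 CPM of Acta2, and 71.07, 180 and 173.5 CPM of Myh11. Rgs5 and Pdgfrb did not follow that order, the 4 markers summed to 517.6 to 883.3 CPM in WT RT, 639.5 to 886.6 in WT Cold and 587.6 to 991.1 in GCN2 KO Cold, and their part in the Spint1 and Ppp1r14d values was not tested.

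The 4 members of mitosis and chromosome segregation were low in every library. Bub1b, a kinase-related protein of the spindle checkpoint, had 2.463, 3.315 and 2.79 CPM in WT RT, 1.624, 2.051 and 2.119 in WT Cold, and 1.121, 0.5562 and 1.404 in GCN2 KO Cold. The groups did not overlap, with GCN2 KO Cold lowest. It was called against WT RT (log2 fold change -1.33 ± 0.35, limma adjusted p = 0.0203), a call lost without WT RT library 2 (adjusted p = 0.0704) or WT RT library 3 (0.0623), and under the fold limit without GCN2 KO Cold library 2 (-0.96, limma adjusted p = 0.0324). It did not pass against WT Cold (-0.86 ± 0.37, limma adjusted p = 0.327), with -1.13 to -0.48 when 1 library was left out. Oip5, which marks centromeres for the histone CENP-A, had 14, 18 and 20 reads in WT RT, 10, 18 and 11 in WT Cold, and 6, 6 and 2 in GCN2 KO Cold. Its call in GCN2 KO Cold against WT RT (-1.49 ± 0.48, limma adjusted p = 0.0426) rested on these few reads: DESeq2 gave an adjusted p of 0.0903, and leaving out any 1 library other than GCN2 KO Cold library 1 took the limma value past 0.05, to at most 0.131. Oip5 overlaps Nusap1, a spindle protein, by 172 bases. Nusap1 had 1.702 to 3.348 CPM over the wild type libraries and 0.9609 to 1.669 in GCN2 KO Cold, and it passed limma in no comparison, nor did Knstrn, a kinetochore protein with 1.391 to 2.698 CPM over all 9 libraries. Of 8 other mitotic genes (Mki67, Top2a, Bub1, Ccnb1, Cdk1, Aurka, Aurkb and Plk1), none passed limma in any of the 3 comparisons. Of these 8, 7 had a log2 fold change below 0 in GCN2 KO Cold against WT Cold, with a median of -0.43.

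**Figure D3:**
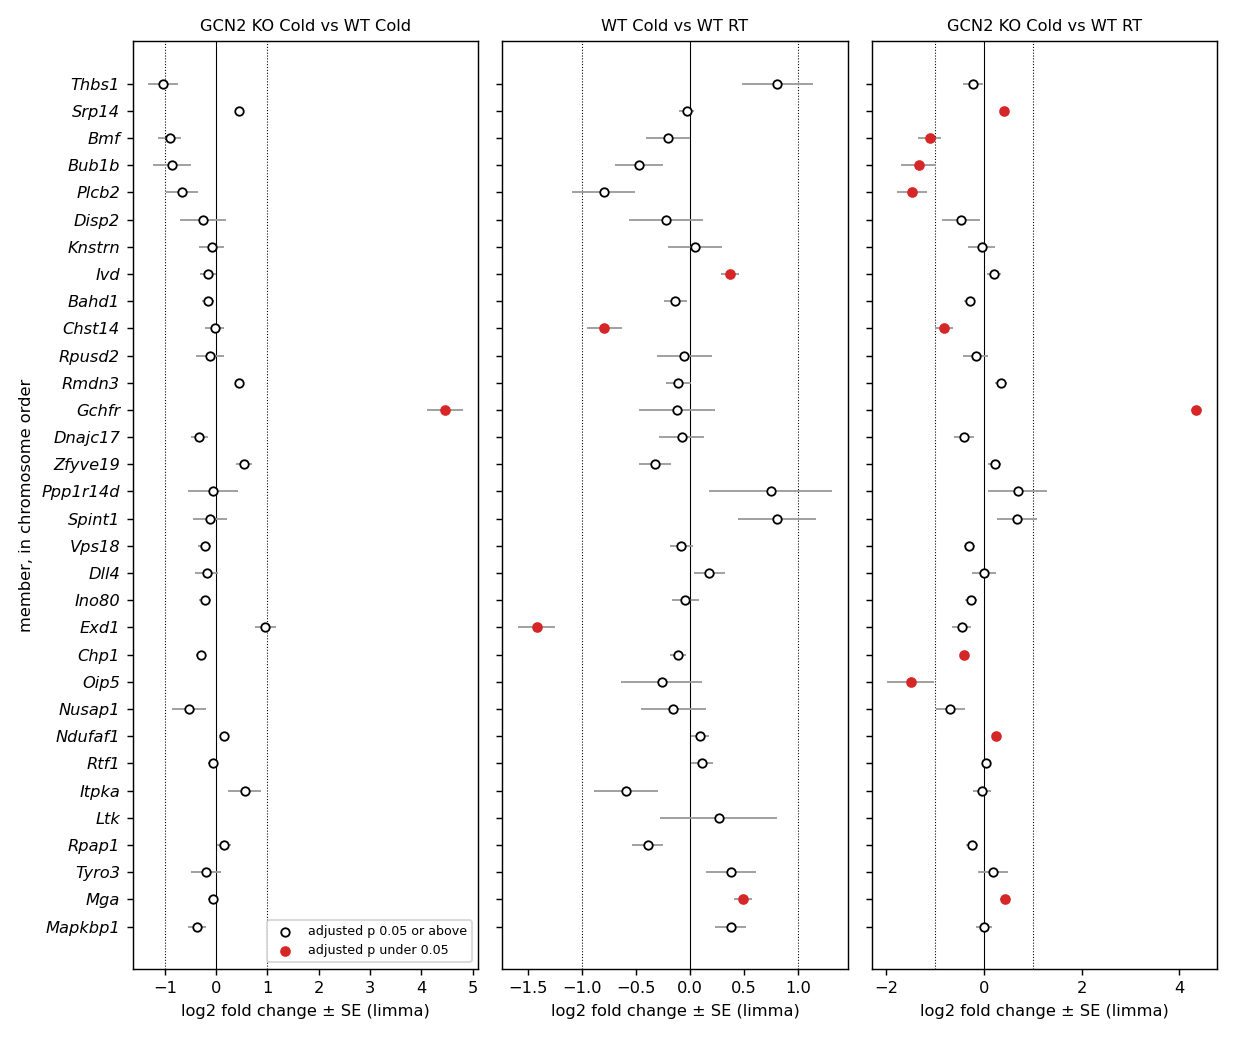
Log2 fold change of each listed member (points) with its SE (lines) in the 3 comparisons from limma, in chromosome order; filled points have an adjusted p under 0.05 and dotted lines mark ±1. Gchfr is the only filled point in GCN2 KO Cold against WT Cold, 4 points are filled in WT Cold against WT RT and 10 in GCN2 KO Cold against WT RT.

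Over the members as a whole, cold in wild type mice gave 4 of 32 an adjusted p under 0.05 in limma, Ivd and Mga higher and Chst14 and Exd1 lower (12.5%, against 27.7% of all genes, 13.6% higher and 14.1% lower). DESeq2 gave 5, with Thbs1 added (15.6%, against 29.5%). The median log2 fold change of the members was -0.077, beside 0.0029 for all genes. The groups were apart for 4 members higher and 5 lower, where 22.8% of all genes were higher and 22.8% lower in this way.

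In GCN2 KO Cold against WT RT, where both genotype and temperature differ, 10 of 31 members had an adjusted p under 0.05 in limma (32.3%, against 34.2% of all 16560 genes, 16.4% higher and 17.8% lower). They were Srp14, Gchfr, Ndufaf1 and Mga, which were higher, and Bmf, Bub1b, Plcb2, Chst14, Chp1 and Oip5, which were lower. Of these, 5 passed both thresholds (16.1%, against 10.6% of all genes): Gchfr upward, where the share over all genes was 3.01%, and Bmf, Bub1b, Plcb2 and Oip5 downward, where it was 7.58%. The groups were apart for 4 members higher and 10 lower, where 23.7% of all genes were higher and 25.5% lower. This comparison shares its GCN2 KO Cold libraries with the comparison against WT Cold, so the pair of results does not come from separate mice. Chac1, a glutathione-degrading target of the ATF4 pathway and no member, was the only other listed gene of the stretch called in it (log2 fold change -1.17 ± 0.33, limma adjusted p = 0.0245). That call was lost without the limma trend (limma adjusted p = 0.0565) and with all 3 groups in 1 fit (0.102). It was also lost in limma without GCN2 KO Cold library 1 (adjusted p = 0.0606) or library 2 (0.0709), or without WT RT library 1 (0.0824) or library 2 (0.0684). In WT Cold Chac1 had 3.731, 3.753 and 21.26 CPM, with library 3 far above the others. Without that library Chac1 was also lower in WT Cold than in WT RT (-0.95, limma adjusted p = 0.00507).

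Against all 6 wild type libraries together, the 3 libraries labelled GCN2 KO Cold were above in CPM for 2 of 31 members, Gchfr and Srp14 (6.45%, against 2.36% of all 16608 genes), and below for 11 (35.5%, against 13.2%). The 11 were Bahd1, Bmf, Bub1b, Chp1, Dnajc17, Ino80, Nusap1, Oip5, Plcb2, Thbs1 and Vps18. The split depended on the scaling: after TMM scaling 3 members were above (9.68%, against 6.73% of all genes) and 6 below (19.4%, against 5.55%). Ndufaf1 joined the members above, and Bahd1, Bmf, Bub1b, Chp1, Oip5 and Plcb2 stayed below. Gchfr and Srp14 were above under both scalings.

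By position, the sign of the log2 fold change of GCN2 KO Cold against WT Cold turned between 12 of the 29 pairs of members next to each other in the tables. The longest run of 1 sign held 9 members, Bmf to Rpusd2, all below 0. Srp14, at 615 bases from Eif2ak4, was higher in GCN2 KO Cold than in WT Cold by 0.44 (log2), and Bmf, the next listed member, was lower by 0.90, although neither passed there in the limma fit of 2 groups, and Bmf did with all 3 groups in 1 fit. Gchfr lies between Rmdn3, with 0.46, and Dnajc17, with -0.33. Among the 155 listed genes of the flanks, within 10 Mb on either side of the stretch, 1 was called by limma in GCN2 KO Cold against WT Cold, Gm14085, which lies 4.01 Mb away and was singled out after its values were seen. It had 0.1313, 0.06501 and 0.1313 CPM in WT RT, 0.1036, 0 and 0.1389 in WT Cold, and 1.808, 2.677 and 2.144 in GCN2 KO Cold (log2 fold change 4.63 ± 0.62, limma adjusted p = 0.0439). The median log2 fold change against WT Cold was -0.14 for the members, -0.043 for the other genes of the stretch, 0.011 for the flanks, 0.018 for the rest of chromosome 2 and -0.0046 for the other chromosomes.

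**Figure D4:**
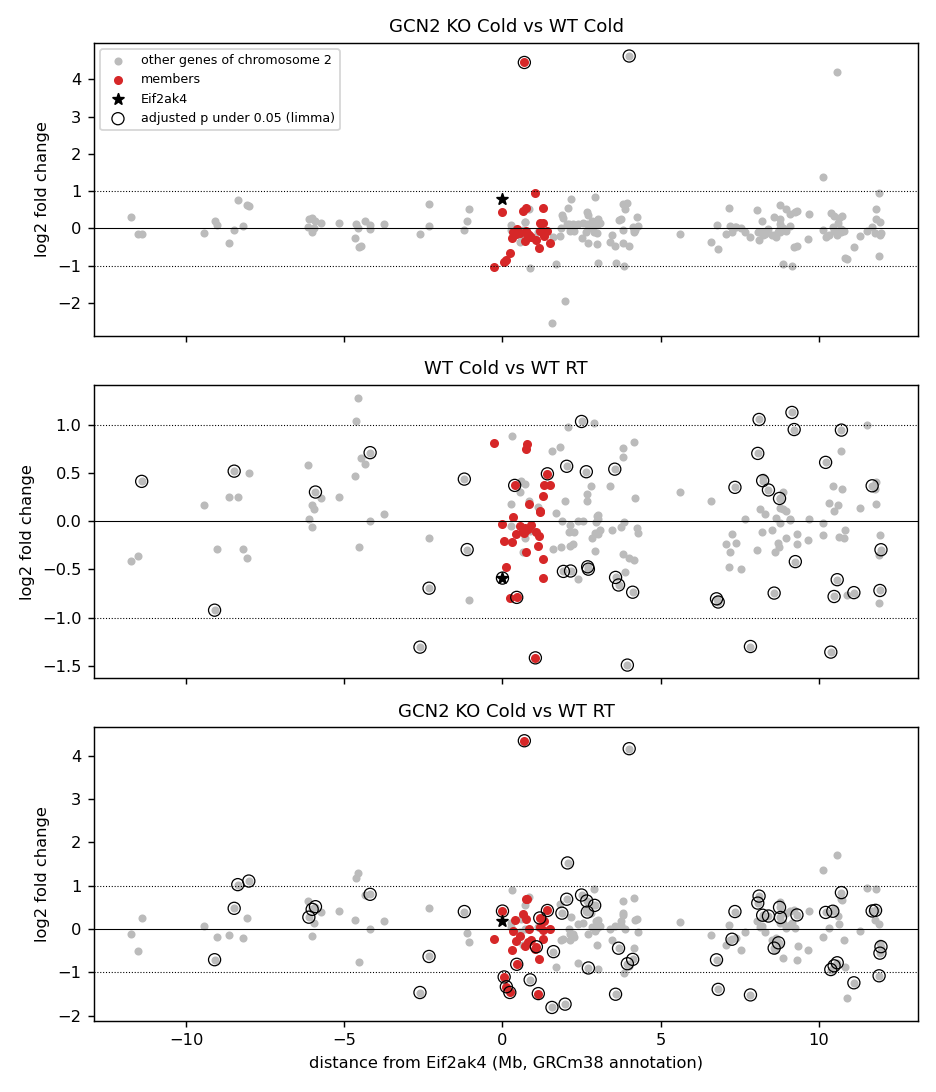
Log2 fold change (limma) of the genes of chromosome 2 within 12 Mb of Eif2ak4 against their distance from it in Mb, for the 3 comparisons. Red points are members, grey points other genes, the star is Eif2ak4, and circles mark an adjusted p under 0.05. In GCN2 KO Cold against WT Cold, Gchfr (4.46) and Gm14085 (4.63) are the circled points, and most members lie within ±1.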

How the data were processed

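BAT RNA of 9 mice was analysed in 3 groups of 3. Per the labels and methods, the authors trimmed reads (Trimmomatic 0.36), aligned them with STAR 2.5.2b, counted them in exons with featureCounts (Subread 1.5.2) and compared groups with DESeq2. The values deposited by the authors are a signal per gene and library: read counts divided by a size factor set within each of 3 tables. The tables also hold the authors' fold changes and p-values, which were not used. Whole reads were recovered for 100% of values (tolerance 0.01), and the least covered listed gene had 61 reads in its table, so the spread between libraries limits all but low genes. The recovered reads were rescaled to CPM.

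As the files hold scaled values and no counts, limma 3.58.1 (R 4.3.3) was run as the main test on log2(value + 1), with a mean-variance trend, the 2 groups of each table in a fit and adjustment over all its genes. DESeq2 1.42.0 and edgeR 4.0.16 on the recovered reads, pseudocounts, filters, scaling and each library left out were alternatives. Scripts were tested on simulated data. The members, roles and gene lists were chosen with earlier results of these data known. The rule for named genes took members with a limma adjusted p under 0.05 or outside the wild type range, the 2 members of each role with the highest mean CPM as examples, and other genes of the stretch that were called. The submitters' notes name GRCm39, while positions here follow GENCODE M21 (GRCm38), which holds 16905 of the 16937 genes, and promoter sequences are RefSeq's. Some genes of the lists and of the stretch are not reported here.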

Additional observations from a re-analysis of the deposited data

How the results depend on the processing

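No paired analysis was possible because the columns carry no replicate numbers. In GCN2 KO Cold against WT Cold, 42 genes and 1 member were called by limma. DESeq2 called 209 genes and 2 members (5 members with an adjusted p under 0.05), limma without the trend 6 and 0 (0), and limma with all 3 groups on CPM 189 and 2 (4). Leaving out 1 library gave 3 to 22 genes and 0 to 1 members, the 0 being without WT Cold library 2 or GCN2 KO Cold library 2. With a log2 fold change limit of 0.5, WT Cold against WT RT gave 2 of 32 members (6.25%, against 19.4% of all genes). In GCN2 KO Cold against WT RT, 1754 genes and 5 members were called, 1301 and 3 where the mean count was at least 50, and 1424 to 1875 and 3 to 5 without 1 library, the 3 without any library but GCN2 KO Cold library 1. Members below all wild type libraries were 11 in CPM, 6 with TMM and 5 on the tables' scaling. Eif2ak4 in GCN2 KO Cold against WT Cold passed in DESeq2 (0.77) and with all 3 groups (0.66). In WT Cold against WT RT it was lost without the trend (-0.59, adjusted p = 0.0502 in limma) and spanned -0.67 to -0.45 without 1 library; against WT RT in GCN2 KO Cold it turned to -0.011 on CPM with all 3 groups.

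Direction turned for values that had not passed limma with all libraries. By tool, Gchfr (0.014 in DESeq2, 0.011 in edgeR) and Chac1 (0.43 in both) turned in WT Cold against WT RT, and on CPM with all 3 groups Dll4 (-0.20; -0.022 with TMM) and Rtf1 (-0.15) in GCN2 KO Cold against WT RT. Without 1 library, the ranges were, in GCN2 KO Cold against WT Cold, Chst14 -0.12 to 0.066, Mga -0.13 to 0.019, Dll4 -0.41 to 0.079, Rtf1 -0.11 to 0.0016, Spint1 -0.47 to 0.18; in WT Cold against WT RT, Gchfr -0.49 to 0.29, Dnajc17 -0.27 to 0.072, Ino80 -0.12 to 0.050, Nusap1 -0.43 to 0.018, Rmdn3 -0.21 to 0.0081, Chac1 -0.95 (passing, without WT Cold library 3) to 0.33; and in GCN2 KO Cold against WT RT, Thbs1 -0.36 to 0.020, Dll4 -0.22 to 0.26, Rtf1 -0.014 to 0.11. Why calls moved was not tested. With 3 libraries a group, small differences of members near 1 CPM may be missed, and the size that can be detected was not tested.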

Other observations

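Phgr1, a gene of the same stretch that is no member, varied between libraries in the way Spint1 and Ppp1r14d did. It had 8.997, 8.614 and 2.56 CPM in WT RT, 10.64, 14.81 and 6.739 in WT Cold, and 15.66, 5.319 and 10.13 in GCN2 KO Cold. Its lowest library was library 3 in WT RT and WT Cold and library 2 in GCN2 KO Cold, as for Spint1 and Ppp1r14d. It was singled out after its values were seen, and it passed limma in no comparison. All 3 genes are known from epithelium. Of the 4 smooth muscle and pericyte markers, Acta2 and Myh11 were lowest in the same 3 libraries and Rgs5 and Pdgfrb were not, and their part in the Phgr1 values was not tested.

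In the flanks within 10 Mb of the stretch, DESeq2 called 4 of 155 genes in GCN2 KO Cold against WT Cold (2.58%, against 1.28% of all genes), Gm14085 and 3 that limma did not call. Sptbn5, a spectrin at 1.566 Mb from Eif2ak4, had 1.398 to 2.429 CPM in WT RT, 2.641 to 3.006 in WT Cold and 0.1848 to 0.6953 in GCN2 KO Cold. Capn3, the calpain of skeletal muscle at 1.981 Mb, had 2.561 to 3.803 CPM in WT RT, 2.015 to 4.866 in WT Cold and 0.3326 to 1.555 in GCN2 KO Cold. All 7 skeletal muscle markers had log2 fold changes below 0 in GCN2 KO Cold against WT Cold. Of these markers limma called 0, and DESeq2 passed Mb and Myh1 (DESeq2 adjusted p = 3.36e-08 and 0.00792), where 3.22% of all genes passed. The 7 markers summed to 2038 to 3390 CPM in WT Cold and 288.8 to 1150 in GCN2 KO Cold, and their part in the Capn3 values was not tested. Across the GCN2 KO Cold libraries 1 to 3, Capn3 had 1.555, 0.8691 and 0.3326 CPM and the muscle actin Acta1 311.9, 253.4 and 73.59. Gm14022, at 10.59 Mb from Eif2ak4, had 0.1313 to 0.4267 CPM in WT RT, 0 to 0.03475 in WT Cold and 0.2957 to 1.302 in GCN2 KO Cold. Its GCN2 KO Cold libraries overlapped those of WT RT.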
